A study of Mus musculus with 12 samples.

Results

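The messenger RNAs described here encode the proteins of the large (60S) subunit of the cytosolic ribosome. They were chosen by gene symbol: 45 of the 15391 genes in the deposited table are mapped by their Ensembl identifiers to the symbols Rpl3 to Rpl41 and Rplp0 to Rplp2 used here, and the rule reads names only. All 45 members passed the filter on low counts in the comparisons. The RNA came from cultured adult mouse dorsal root ganglion neurons of genotype RPL22HA+/+;Advillin-Cre+. In such RiboTag mice the ribosomal protein Rpl22 carries an HA tag in cells that express Cre, here under the sensory-neuron promoter of Advillin, so that an anti-HA immunoprecipitate (IP) takes up ribosomes of those cells with their mRNA. All 4 groups share this genotype and a sciatic nerve injury given to the mice before culture ("Preconditioned"). They differ in virus (a control AAV, worded AAV-shControl for input and AAV-Control for IP, or AAV-shLarp1) and in fraction (IP or input). The mouse age is not given in the sources used here, and the extraction text speaks of fresh ganglia where the source label says cultured neurons.

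Most mRNAs for ribosomal proteins start with a C followed by an uninterrupted run of pyrimidines, the 5′ terminal oligopyrimidine (TOP) motif. The RNA-binding protein LARP1, encoded by Larp1, binds the cap and this motif, and it is known both for holding back translation of TOP mRNAs when the kinase mTORC1 is inactive and for keeping these mRNAs stable. Ribosomal proteins are assembled with rRNA in near-equal numbers, and axons are known to make some of them locally.

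The longest pyrimidine run near the annotated start is shown for members on which the results below turn. The search read 80 bases per gene, from 30 bases before to 50 bases after the start annotated by RefSeq (GRCm38.p6, an older build than the GRCm39 of the deposited table). A run was counted where it held at least 8 bases of C or T and began with C. RefSeq start sequences were available for 34 of the 45 members, and 29 of the 34 (85.29%) held such a run on the coding strand, against 25.99% of 27025 genes searched in the same window. On the opposite strand 23.53% of the members and 29.16% of all genes held one. The letters CTTTC, a common core of these runs, were in 22 of the 34 members (64.71%) on the coding strand and in 11.83% of all genes. On the opposite strand they were in 8.824% and 11.41%. A match describes letters in this window and is no measured start of an mRNA. The runs shown begin at positions from -20 (Rpl5) to 42 (Rpl10) relative to the annotated start. Whether they are TOP motifs was not tested. Below, capitals mark the run, and each line gives 30 bases around it, 5′ to 3′; Rplp0 and Rpl22 have no run of that length in the window and are shown without capitals.
Rplp2, chr7:141447639-141447668, plus strand: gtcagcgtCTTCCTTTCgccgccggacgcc
Rplp0, chr5:115559472-115559501, plus strand: gcctggttctcctataaaaggcacacgcgg
Rpl12, chr2:32961732-32961761, plus strand: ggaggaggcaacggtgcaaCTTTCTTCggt
Rpl5, chr5:107900500-107900529, plus strand: tacagccaCTCTTTCTCacgtcgcttgcgt
Rpl4, chr9:64173405-64173434, plus strand: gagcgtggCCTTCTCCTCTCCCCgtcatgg
Rpl6, chr5:121204521-121204550, plus strand: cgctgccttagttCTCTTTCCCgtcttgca
Rpl10, chrX:74270836-74270865, plus strand: cgtgagcaggcgtgggagcgtCTCTTTTCC
Rpl22, chr4:152324418-152324447, plus strand: cagcgctgcttctggaatgttccagctccc
Rpl34, chr3:130730333-130730362, minus strand: ctcacccgCCCCTTCCTTTTCCTCTTCCgg
Rpl35, chr2:39005117-39005146, minus strand: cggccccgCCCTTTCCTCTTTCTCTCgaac
Rpl38, chr11:114668572-114668601, plus strand: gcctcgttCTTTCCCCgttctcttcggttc
Rpl41, chr10:128549119-128549148, minus strand: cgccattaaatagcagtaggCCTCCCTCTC
The runs of Rpl10 and Rpl41 reach the end of the window and may go on beyond it. The other members without a run were Rpl23, Rpl24 and Rpl27. No entry was matched for Rpl3, Rpl7, Rpl8, Rpl17, Rpl21, Rpl23a, Rpl29, Rpl30, Rpl32, Rpl36 and Rplp1.

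Each group has 3 columns in the table. Their totals were 3126591 to 3128368 estimated counts in control IP, 3176458 to 3177552 in shLarp1 IP, 564095 to 564625 in control input and 759527 to 760140 in shLarp1 input. Within a group the columns differed by little more than sampling noise: a chi-square test gave p under 0.05 for 6.976% to 7.616% of genes with at least 30 counts per group, and for 3 to 6 of the 45 members. The 3 columns were therefore counted as 1 sample, so that no comparison below has biological replicates, and none has a p-value. A value is a log2 ratio of the summed counts of 2 groups after scaling by TMM factors (edgeR), with a 95% exact (Clopper-Pearson) interval that covers counting error only. "Rose" and "fell" are used where that interval lies wholly beyond a 1.5-fold change. A gene with few counts has a wide interval and can hardly pass this limit. In control input 2131 genes had at least 30 counts, whereas each member had at least 257 in each input group. The shares of all genes past the limit, given below, are therefore not matched to the members in depth. The median coefficient of variation of a member over the 3 columns was 1.193% in control IP and 2.7619% in control input. Columns of 2 groups can thus separate at small differences, and such separation, where given below, is not replication. By the chi-square test the least even member was Rplp2 in IP, with 2856, 2636 and 2420 counts in the columns of control IP. In input it was Rpl21 by the same test, with 1420, 1240 and 1527 counts under the control virus and 1055, 1264 and 1081 under shLarp1.

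Larp1 itself had 147, 141 and 154 counts in control IP and 55, 49 and 45 in shLarp1 IP, so the columns of the groups did not overlap. Its log2 ratio was -1.72 (-1.999 to -1.45) in IP, where it fell. In input only 5, 7 and 6 counts against 3, 3 and 2 were found, and the ratio of -1.37 (-2.78 to -0.09) did not reach the 1.5-fold limit. The summed level of 20 sensory-neuron marker genes was 10790 CPM (counts scaled to a common library total) in control IP and 12560 in shLarp1 IP, against 2351 and 1325 in the inputs. Schwann and satellite glia markers (20 of 20 genes present) summed to 917 and 943 in IP and to 1113 and 1167 in input. Fibroblast markers (15 of 15) summed to 930 and 1293 in IP and to 635 and 568 in input. Macrophage markers (10 of 12, with Mrc1 at 0 in input) came to 116 in control input and 67.1 in shLarp1 input. Endothelial and mural markers (9 of 10) came to 109 and 61.4. These sums use total counts, and genes of a list did not all go alike. With TMM factors, IP against input under the control virus was above 0 for 6 fibroblast genes and below for 6. For glia it was 8 and 9, and for neurons 20 and 0. Between the viruses in input, the neuron markers' TMM median was -0.22 (5 above 0, 15 below), against -0.14 for all genes. In such bulk samples fewer cells of a type and less RNA per cell cannot be told apart, and the part of these markers in the results below was not tested.

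In the HA immunoprecipitate the large-subunit mRNAs differed little between the viruses. None of the 45 rose and none fell, where 0.719% of the 8766 genes tested rose and 4.4% fell. That background includes genes with no input count and 774 of the 781 genes set apart below as low in IP relative to input. Outside both classes 48 of 6807 genes rose and 89 fell, and 42 of the members lie there. The median log2 ratio of the members was -0.14, against -0.08 over all genes tested and -0.01 over the 6807, and 41 of 45 lay below 0. The members ran from -0.46 for Rplp1 to 0.13 for Rpl36, with an SD over members of 0.106. With total counts in place of TMM factors the median was -0.01 and that of all genes 0.05, so the small offset from 0 depended on the scaling, while the absence of members past the limit did not in any of the scalings tried. Members' summed share of all counts was 11.85% in control IP and 11.72% in shLarp1 IP.

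The P stalk, the flexible arm of the subunit that recruits the translation GTPases, held the widest spread in IP. Rplp1, an acidic protein at the tip of the stalk, had 15655, 15655 and 15553 counts in control IP and 12516, 12609 and 12775 in shLarp1 IP. All 3 shLarp1 columns were below all 3 control columns, and the ratio of -0.46 (-0.48 to -0.44) was the lowest of the set but inside the limit. Rplp2, the partner with which Rplp1 pairs on the stalk, had 3121, 3218 and 2898 counts in shLarp1 IP against the 2856, 2636 and 2420 of control IP. Its raw counts were higher in all 3 shLarp1 columns, but after scaling the columns overlapped, and the ratio was 0.07 (0.03 to 0.11). Rplp0, which anchors both to the ribosome, had a ratio of -0.25 (-0.29 to -0.20), and Rpl12, at the base of the stalk, one of -0.28 (-0.34 to -0.22).

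The remaining role groups stayed closer together in IP. Rpl5 and Rpl11, which join the subunit as a complex with 5S rRNA, had ratios of -0.21 and -0.10. The proteins near the peptidyl transferase centre, Rpl3 and Rpl8, had -0.16 and -0.05. The 8 proteins that line or surround the exit of the peptide tunnel (Rpl4, Rpl17, Rpl19, Rpl23a, Rpl26, Rpl31, Rpl35 and Rpl39) ran from -0.18 for Rpl39 to -0.04 for Rpl19. Rpl10a, the protein of the L1 stalk, had -0.17. The members that join late in the cytoplasm, Rpl10, Rpl24 and Rpl29, had -0.04, -0.07 and -0.14. Rpl22, the protein that carries the tag, had 2075, 2040 and 2022 counts in control IP and 2029, 2029 and 1981 in shLarp1 IP, and a ratio of -0.18 (-0.23 to -0.12). After Rplp1 the lowest ratios were those of Rpl34 (-0.34), Rpl12, Rpl35a (-0.26) and Rpl13a (-0.26). Those above 0 were Rpl36 (0.13, interval -0.15 to 0.40), Rplp2, Rpl6 (0.01) and Rpl27 (0.01).

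A comparison that needs no scaling between groups is the share of the set's own counts that each member takes. In IP, 43 of the 45 shares were within 0.25 on the log2 scale of their control value. The exceptions were Rplp1, which took 4.216% of the set's counts under the control virus and 3.393% under shLarp1 (log2 ratio -0.31), and Rpl36, with 0.0182% and 0.0219% (0.27, interval -0.00 to 0.55). No share passed the 1.5-fold limit. The SD of the log2 share ratios over members was 0.106 in IP and 0.279 in input.

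**Figure D1:**
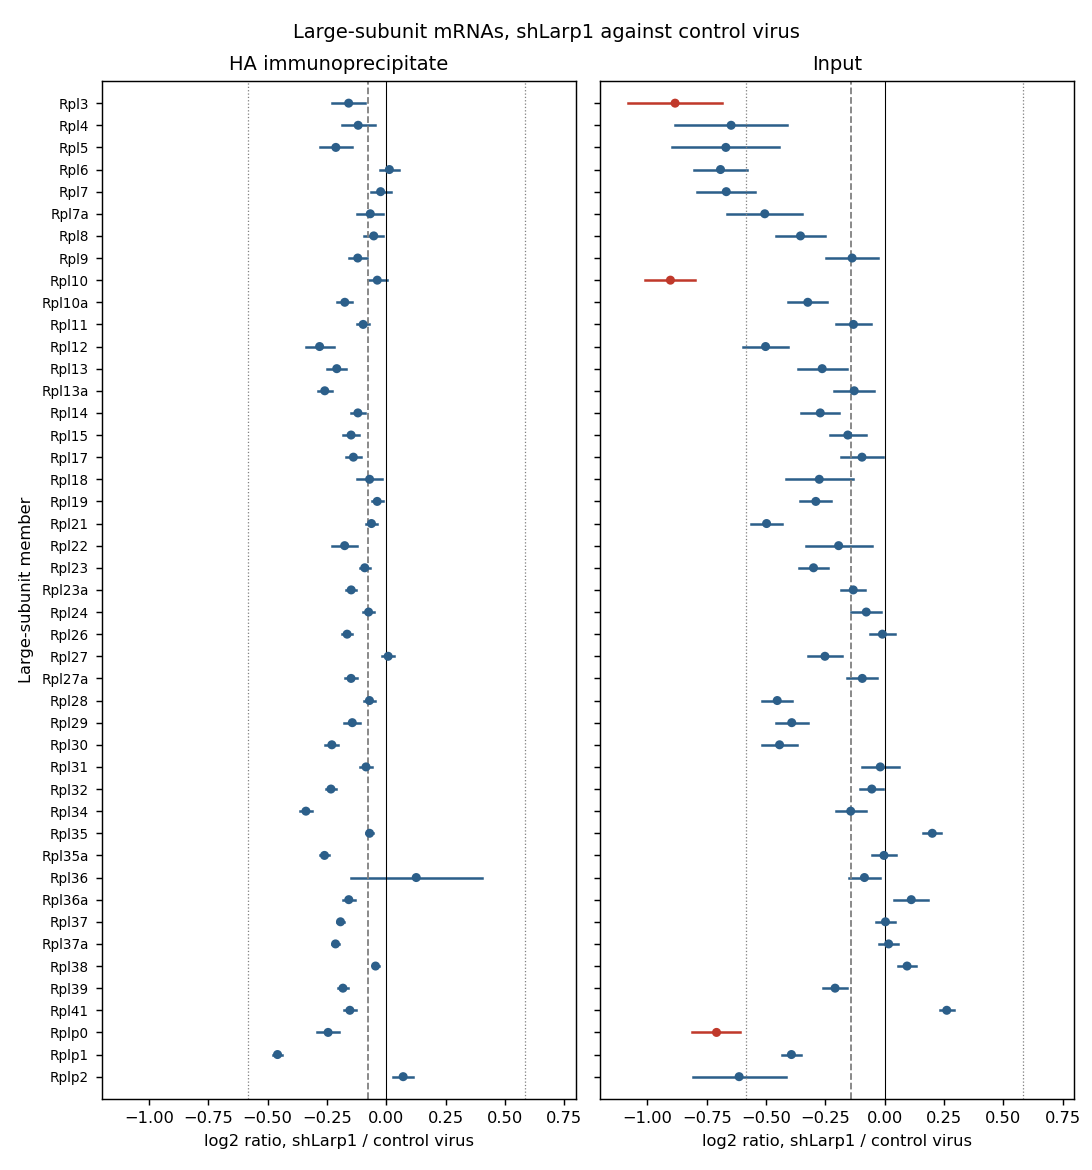
Log2 ratio of shLarp1 to control virus for each of the 45 members (rows), in the immunoprecipitate (left) and input (right). Points are TMM-scaled ratios of summed counts, bars their 95% counting intervals, dotted lines the 1.5-fold limit, the dashed line the median of all genes tested, and red marks members that fell. The IP values lie between -0.46 and 0.13, whereas those of input run from -0.90 to 0.26, and 3 members fell.

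In input the members were spread over a wider range. Rpl10, Rpl3 and Rplp0 fell (3 of 45) and none rose, where 1.01% of the 7588 genes tested fell and 0.171% rose. Most of those genes had fewer input counts than the members. The median log2 ratio was -0.25, against -0.14 over all genes tested, with a range from -0.90 for Rpl10 to 0.26 for Rpl41. Below 0 lay 39 of 45 members, 4237 of the 7588 genes and 26 of 33 genes of the small ribosomal subunit. The 3 calls depend on the scaling: with DESeq2 size factors or upper-quartile factors only 1 member (Rpl10) fell, with total counts 12 did, and with TMM factors taken against a control IP column none did, with a median of -0.02. In shares of the set, which no scaling touches, Rpl10 alone passed the limit, with a log2 share ratio of -0.79 (-0.90 to -0.69).

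Rpl10, among the last proteins to join the subunit, had 629, 687 and 610 counts in control input and 420, 380 and 381 in the more deeply sequenced shLarp1 input. It took 1.086%, 1.182% and 1.049% of the set's counts in the control columns and 0.6825%, 0.6177% and 0.6152% in the shLarp1 columns. The groups did not overlap, and its log2 ratio was -0.90 (-1.01 to -0.80). In IP its share was 0.8334% and 0.8977%. Reads of Rpl10 and of its pseudogene copy Rpl10-ps3 may not be separable. The copy had 473, 464 and 488 counts in control input and 395, 402 and 372 in shLarp1 input, and a ratio of -0.48 (-0.60 to -0.37). Summed with the copy, Rpl10 still fell (-0.71, interval -0.79 to -0.63), but with all named copies added its share of the set no longer passed the limit.

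Rpl3, which reaches toward the peptidyl transferase centre, had 185, 178 and 192 counts in control input and 123, 113 and 109 in shLarp1 input. Its share of the set was 0.3194%, 0.3062% and 0.3300%, then 0.1999%, 0.1837% and 0.1760%, with no overlap. The log2 ratio was -0.88 (-1.08 to -0.69). In IP the shares overlapped: 0.3071%, 0.3115% and 0.3039% under the control virus against 0.3108%, 0.2886% and 0.3146% under shLarp1. Rplp0 had 648, 626 and 656 counts in control input and 426, 456 and 472 in shLarp1 input, and a ratio of -0.71 (-0.81 to -0.61). Without the columns numbered 1 its interval crossed the limit (-0.65).

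Several members came close to the limit in input. Rpl6 had 556, 534 and 526 counts against 398, 391 and 358, and a ratio of -0.69 (-0.80 to -0.58), the bound just inside the limit. Rpl5 had -0.67 (-0.90 to -0.44), whereas Rpl11, its partner in the 5S complex, had -0.13 (-0.20 to -0.06). Rpl7 had -0.67, Rpl4, whose extended loop lines the tunnel, -0.65, and Rplp2 -0.61. At the other end were Rpl41, the shortest protein of the subunit (0.26, interval 0.23 to 0.29), Rpl35 at the tunnel exit (0.20), Rpl36a (0.11), Rpl38, a member whose loss in mice disturbs the patterning of the skeleton (0.09), and Rpl37a (0.02). Rpl41 had 5153, 5086 and 5150 counts in control input and 7016, 7054 and 7084 in shLarp1 input, and its share of the set went from 8.833% to 11.44%. Rpl22 had -0.19.

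**Figure D2:**
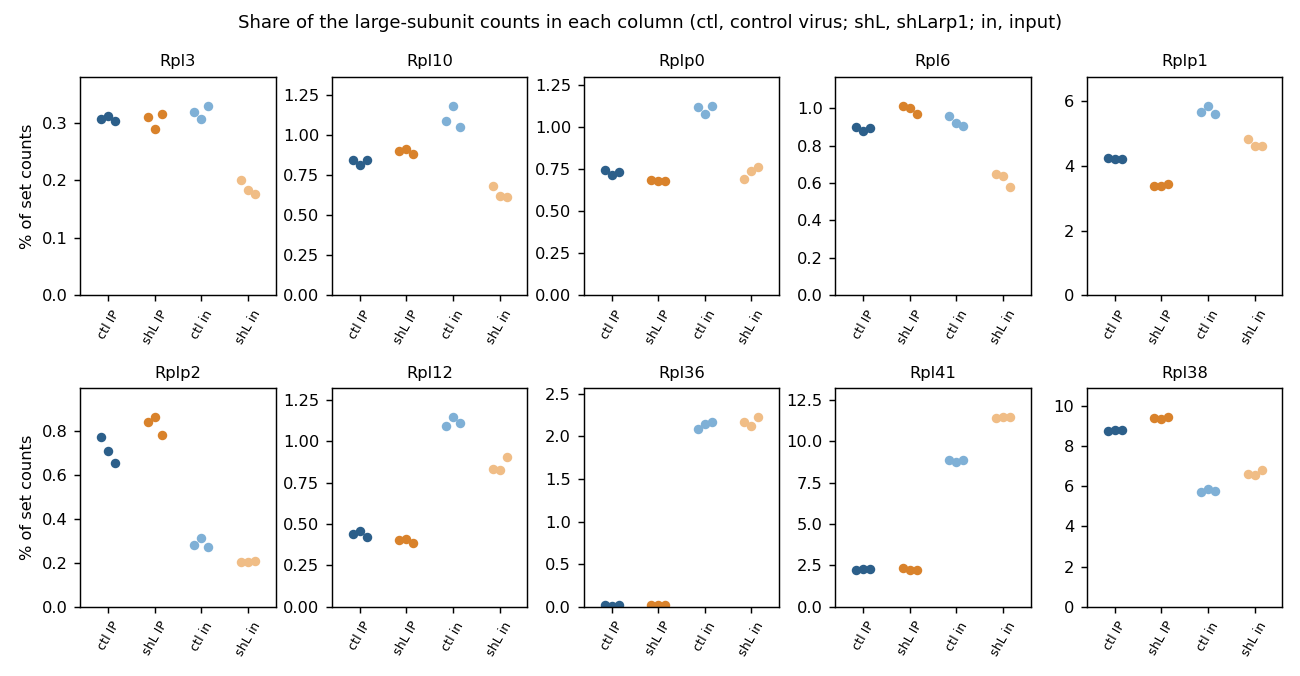
Percent of the summed large-subunit counts taken by 10 members in each of the 3 columns of each group (ctl, control virus; shL, shLarp1; in, input); each panel starts at 0 and has its own scale. The shLarp1 input columns of Rpl3, Rpl10, Rplp0 and Rpl6 lie below the control input columns, and those of Rpl41 and Rpl38 above, while the IP columns of Rplp1 separate by virus and Rpl36 is near 0 in IP.

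In input the members with low numbers in their names had the lowest ratios. By convention, numbers in the names of large-subunit proteins run roughly from larger to smaller proteins; mRNA lengths were not used here. Over the 42 members whose names hold a number after Rpl, the log2 ratio in input was higher at higher numbers, with a Spearman correlation of 0.75 and a Pearson correlation of 0.73. The members from 3 to 10 had a median ratio of -0.66 (10 members, -0.90 to -0.14), those from 11 to 24 one of -0.23 (14 members, -0.50 to -0.08), and those from 26 to 41 one of -0.04 (18 members, -0.45 to 0.26). These points are genes of the same 2 groups of columns and are not independent. The grouping was chosen after the values were seen. Scaling shifts all members alike and leaves the order as it is. Without Rpl12, Rpl36 and Rpl41, which stand apart in the ratio of IP to input, the Spearman correlation was 0.71. In IP it was -0.20, with medians of -0.09, -0.13 and -0.16 in the same groups of members. Over the 30 small-subunit members with a number it was 0.48 in input and -0.17 in IP.

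**Figure D3:**
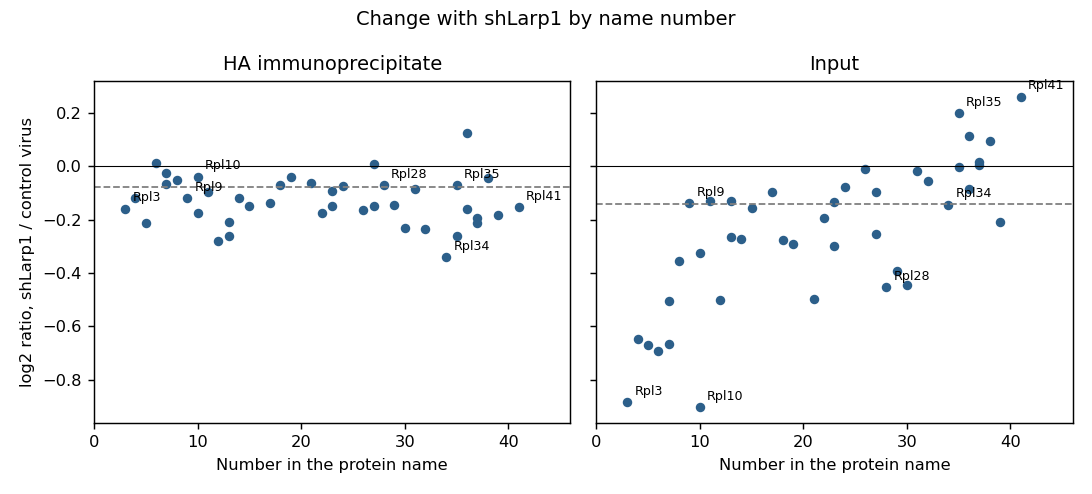
Log2 ratio of shLarp1 to control virus against the number in the protein name for 42 members, in IP (left) and input (right); the dashed line is the median of all genes tested. The input values climb from a median of -0.66 at numbers 3 to 10 to -0.04 at 26 to 41, with Rpl9 above and Rpl28 below members of near numbers, and no such climb appears in IP.

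Members with and without a pyrimidine run in the window searched overlapped in their ratios in both fractions. In IP the 29 members with a run of 8 or more bases had a median of -0.15 (-0.34 to 0.07) and the 5 without one -0.09 (-0.25 to 0.01), and the length of the run and the ratio had a Spearman correlation of -0.16 over the 34 members with a sequence. In input the medians were -0.16 and -0.25 and the correlation 0.28, and for the difference between the fractions the correlation was -0.35; the points are genes of the same libraries. Rpl34, with a run of 20 bases, had the lowest IP ratio among the 34, and Rpl27a, also with 20, had -0.15. Runs were found in 72% of the 25 small-subunit genes with a sequence, in 36.84% of 19 other TOP genes, in 32.56% of 43 genes of the mitochondrial large subunit and in 16.67% of 36 genes for assembly of the large subunit.

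The IP was then set against the input of the same virus, which asks how strongly an mRNA is taken up with the tagged neuronal ribosomes relative to the whole culture. The scale of this comparison is uncertain. The 781 genes with a mean log2 ratio below -2, among them Rpl12, Rpl36 and Rpl41, held 10.86% and 8.61% of the IP counts but 56.23% and 65.27% of the input counts. Of 792 long non-coding RNA genes, 774 (97.73%) had no count in any input column, against 796 of 12062 protein-coding genes (6.599%). Of the 10 named pseudogene copies of members, 8 had no input count. The part of these features in the ratios was not tested. The members held 10.29% of all control input counts and 8.116% of all shLarp1 input counts. Their counts were also divided by a total without the low-ratio genes and the genes with no input count. The members' side kept Rpl12, Rpl36 and Rpl41, so these values are ratios and not shares. They came to 16.21% and 15.09% in IP and to 23.51% and 23.37% in input, for the control virus and shLarp1.

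Under the control virus 21 of 45 members were lower in IP than in input and none was higher. Of the 7588 genes tested, most with fewer input counts than the members, 14.4% were lower and 12.8% higher. The members' median was -0.62, against 0.41 over all genes tested. Under shLarp1, 18 were lower and 1 higher, where 15.1% of 7587 genes were lower and 16.8% higher, with medians of -0.51 and 0.68. With total counts in place of TMM factors the members' medians turned to 0.35 and 0.82, those of all genes to 1.38 and 2.00, and the members lower in IP to 3 and 2 (of all genes 8.59% and 9.91%). Higher in IP were then 6 and 29 members, where 44% and 65.7% of all genes were. Scaling moves all genes alike, so the distance of the members from the median gene was the same under both, while their direction did not hold.

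Rpl36 stood far from the other members. It had 70, 55 and 77 counts in control IP and 89, 89 and 67 in shLarp1 IP, but 1209, 1250 and 1265 in control input and 1337, 1308 and 1380 in shLarp1 input, though the IP columns held more counts in all. The log2 ratios were -7.64 (-7.85 to -7.44) and -7.43 (-7.62 to -7.24). Its pseudogene copy Rpl36-ps12 had 37 counts in control IP, 93 in shLarp1 IP and none in input. Rpl41 had 8320, 8552 and 8388 counts in control IP against 5153, 5086 and 5150 in control input, a ratio of -2.72 (-2.75 to -2.69), and one of -3.14 under shLarp1. Rpl12 had 1627, 1697 and 1556 counts in control IP and 634, 667 and 648 in control input, and ratios of -2.11 and -1.89. Without these 3 members the medians of the set were -0.59 and -0.47, with 18 and 15 lower.

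Among the other members lower in IP under both viruses were Rpl29 (-1.48 and -1.23), Rplp0 (-1.36 and -0.90), Rplp1 (-1.19 and -1.26), Rpl39 (-1.19 and -1.16) and Rpl15 (-1.12 and -1.12). Rpl10 was lower under the control virus (-1.17) and had -0.31 under shLarp1. The other 12 members lower under the control virus, Rpl3, Rpl6, Rpl7, Rpl8, Rpl10a, Rpl13, Rpl21, Rpl23a, Rpl28, Rpl30, Rpl32 and Rpl34, ran from -0.84 for Rpl23a to -0.65 for Rpl21. The other 10 lower under shLarp1, Rpl13, Rpl23a, Rpl26, Rpl27a, Rpl32, Rpl34, Rpl35a, Rpl36a, Rpl37 and Rpl37a, ran from -0.99 for Rpl32 to -0.64 for Rpl36a. Rplp2 went the opposite way from its stalk partners: it had 163, 183 and 157 counts in control input and 124, 124 and 129 in shLarp1 input, and ratios of 0.54 (0.41 to 0.67) and 1.22 (1.08 to 1.38). Rpl4 and Rpl5 had -0.18 and -0.18 under the control virus and 0.34 and 0.28 under shLarp1. Rpl22 had -0.59 and -0.57, close to the median of the set.

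In shares of the set, Rplp2 alone was higher in IP under the control virus (log2 share ratio 1.30, interval 1.17 to 1.43), and Rpl36 (-6.88), Rpl41 (-1.96), Rpl12 (-1.35) and Rpl29 (-0.72) were lower. Under shLarp1, 5 shares were higher in IP, those of Rplp2 (2.02), Rpl4 (1.14), Rpl5 (1.08), Rpl7 (0.75) and Rpl6 (0.68), and those of Rpl36, Rpl41 and Rpl12 were lower. For Rpl4, Rpl5, Rpl6 and Rpl7 the input share was the smaller one under shLarp1: that of Rpl6 was 0.9275% in control input and 0.6201% in shLarp1 input, while in IP it was 0.8906% and 0.9938%.

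**Figure D4:**
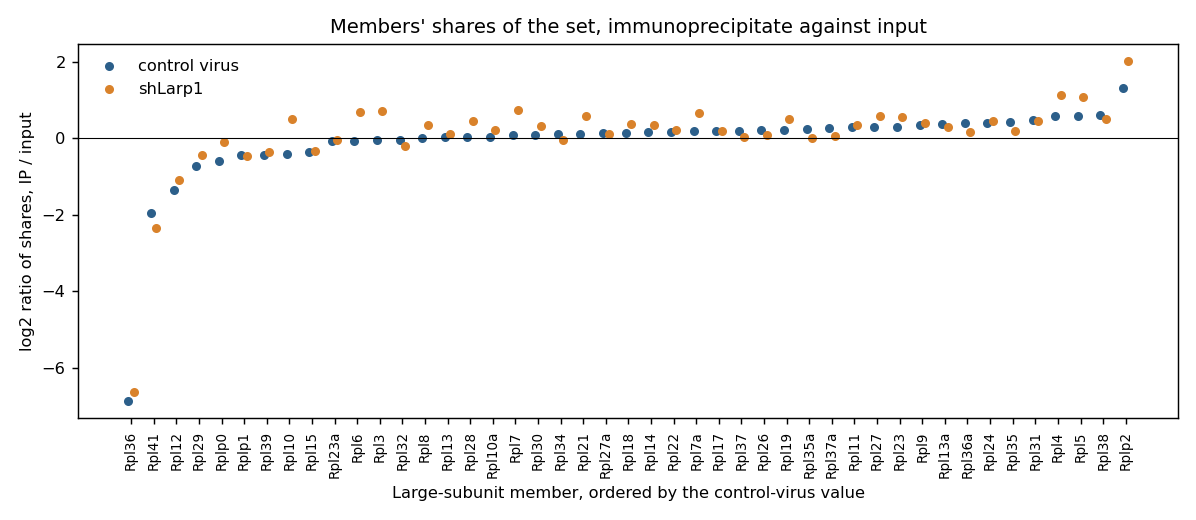
Log2 ratio of each member's share of the set's counts in IP to that in input, for the control virus (blue) and shLarp1 (orange), ordered by the control value. Rpl36 lies at -6.88 and -6.63, Rpl41 and Rpl12 are the next lowest, Rplp2 is highest under both viruses at 1.30 and 2.02, and 22 of 45 members under the control virus and 15 of 45 under shLarp1 lie within 0.25 of 0.

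The difference between the viruses' effects in IP and in input was computed as the log2 ratio in IP minus that in input. It was beyond 1.5-fold for Rpl10 (0.86, interval 0.75 to 0.98) and Rpl6 (0.70, 0.59 to 0.82), 2 of 45, where 1.38% of 7588 genes were beyond it upward. None of the members was beyond it downward, where 5.57% of genes were. Of those 423 genes, 362 were among the 781 low-ratio genes. Outside the low-ratio genes and those with no input count, 61 of 6807 genes were beyond it downward and 98 upward. The members' median was 0.05, against 0.07 over all genes tested and 0.16 over the 6807. Rpl6 lost its call when any 1 of the 3 numbers of columns was left out (0.70 to 0.72), and Rpl10 kept it (0.76 to 0.93). With DESeq2 size factors neither was beyond the limit (0.66 and 0.50). The lowest values were those of Rpl41 (-0.42), Rpl35 (-0.27), Rpl36a (-0.27), Rpl35a (-0.26) and Rpl37a (-0.23), and after Rpl10 and Rpl6 the highest were Rpl3 (0.72), Rplp2 (0.68) and Rpl7 (0.64). The counts of Rpl3 and Rplp2 in input were low, and their intervals (0.52 to 0.93 and 0.49 to 0.88) crossed the limit.

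The balance between the subunits was compared through summed counts. The 45 large-subunit genes had 1.484 counts for each count of the 33 small-subunit genes in control IP (1.480 to 1.488) and 1.519 in shLarp1 IP (1.515 to 1.524). In input the ratios were 1.302 (1.293 to 1.311) and 1.307 (1.298 to 1.316). The intervals of the inputs overlapped, and those of the IP groups did not, although counting error is the only error in them.

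Paralogs of the members were measured beside them. Rpl22l1, the paralog of the tagged protein, had log2 ratios of -0.17 in IP and 0.05 in input. Rpl36al had 0.00 and 0.01. Rpl7l1 had -0.42 and 0.30, and its ratios of IP to input were -3.20 and -3.93. The muscle paralog Rpl3l had 1, 0 and 1 counts in control IP, 6, 11 and 4 in shLarp1 IP and none in input, and did not pass the filter on low counts. Rpl10l and Rpl39l were not analysed here.

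Other genes of the translation machinery came from lists fixed by function. Of 33 small-subunit genes none rose or fell in IP (median -0.17), and Rps12 fell in input (-0.67; median -0.23). Of 29 other genes known as TOP mRNAs, Pabpc1, which binds poly(A) tails (-1.22), and Ybx1, a Y-box RNA-binding protein (-0.82), fell in IP (median -0.06). In input Eef1g, a subunit of elongation factor complex eEF1 (-1.09), and Tpt1 (-0.89) fell (median -0.33). Of the 44 genes for assembly of the large subunit 39 passed the filter. Wdr12 (-1.22), Lsg1 (-1.14) and Rrp15 (-0.95) fell and Sdad1 rose (1.52) in IP, and none passed the limit in input. Of 49 genes of the mitochondrial large subunit, which is built from separate proteins, Mrpl1 fell in IP (-0.90; median 0.02) and none passed the limit in input (median -0.15). For IP against input under the control virus, 25 of the 33 small-subunit genes were lower (median -0.76), among them Rps28 (-3.61) and Rps12 (-3.29), and 18 were lower under shLarp1 (median -0.72). Of the other TOP genes 4 were higher under the control virus, Cct4 (2.12), Eif4a2 (1.23), Eef2 (1.03) and Vim (0.84), and Tpt1 was lower (-2.44; median 0.35). Under shLarp1, 8 of the 29 were higher and 1 lower (median 0.31). For IP against input the shares of all genes higher were 12.8% and 16.8%, and of all genes lower 14.4% and 15.1%. Between the viruses 4.4% of all genes fell and 0.719% rose in IP, and 1.01% fell and 0.171% rose in input. Outside the low-ratio genes and those with no input count, 89 of 6807 genes fell and 48 rose in IP.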

How the data were processed

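The values deposited by the authors are estimated counts of reads for each gene, given as whole numbers; per the labels' protocols they come from nanopore cDNA-PCR libraries. The submitters' processing notes name minimap2, Salmon, GRCm39 and mm39; for versions, annotation, filters and strand, nothing is given in the sources used here. Reads of overlapping genes or near-identical copies cannot be told apart, and without molecular identifiers counts are not independent molecules. Symbols were matched by identifier for 13711 of 15391 genes. Groups follow the sample titles. A test with replicates had been planned, but the 3 columns of a group nearly agreed within sampling noise and the labels name no separate cultures, so they were summed as 1 sample.

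Genes were filtered with filterByExpr (minimum count 10, 8773 genes kept) and scaled with TMM factors in edgeR 4.0.16 (R 4.3.3). Intervals are exact (Clopper-Pearson, 95%), and those of shares of the set likewise. Comparisons with input used genes with input counts. For the difference of the effects 0.5 counts were added and a normal interval was used. The interval rule was tried on simulated counts that held counting error only. That trial could not show how the rule behaves where samples differ by more than counting error. Alternatives were other scalings, no filter, columns left out, and edgeR's quasi-likelihood test and DESeq2 1.42.0 with columns as replicates (Benjamini-Hochberg, 0.05). Same-numbered columns did not deviate together, so numbers were not used as pairs.

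The members, gene lists and role groups were chosen with earlier results of these data known. Genes named are Larp1, members past the limit, the 5 highest and 5 lowest members per comparison, the role groups, the paralogs, and genes of the related lists past the limit (for IP against input, of the small-subunit and TOP lists under the control virus only). Pseudogene copies, further near-limit members and the columns least alike were chosen after their values were seen. Some genes that this rule names are not reported here.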

Additional observations from a re-analysis of the deposited data

Results flagged for a closer look

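The effect of shLarp1 differed between IP and input for Rpl10, by 0.86 on the log2 scale, and for Rpl6, by 0.70, each with a counting interval wholly beyond 1.5-fold. With DESeq2 size factors neither passed that limit (0.66 and 0.50), and Rpl6 did not pass it when the columns of any 1 number were left out (0.70 to 0.72). With 1 sample per group the difference was not tested against replicates.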

How the results depend on the processing

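Counting depth limited single members, with as few as 202 counts per group in IP (Rpl36) and 257 in input (Rpl4). Other scalings moved the medians and the counts of members past the limit, and the cause was not tested. In IP the median of the members between the viruses was -0.0139 with total counts, -0.0157 with upper-quartile factors and -0.0717 with TMM factors against a control IP column. In input the members lower were 1 with DESeq2 size factors (median -0.0407), 12 with total counts (-0.48), 1 with upper-quartile factors (-0.11) and 0 with TMM factors against a control IP column (-0.0169). The shares of all genes lower in these 4 scalings were 0.461%, 2.68%, 0.567% and 0.382%. For IP against input under the control virus, the members lower were 12 with DESeq2 size factors (median -0.51), 3 with total counts (6 higher, median 0.35), 42 with upper-quartile factors (-1.10) and 11 with no filter (-0.45), where 13.5%, 8.59%, 21% and 9.12% of all genes were lower and, with total counts, 44% higher. Under shLarp1 the median was -0.60 with DESeq2 size factors, -0.68 with TMM factors against a control IP column and -0.345 with no filter; total counts gave 29 higher and 2 lower (0.82), and upper-quartile factors 0 higher and 38 lower (-1.01); of all genes 65.7% were higher and 9.91% lower with total counts, and 6.55% and 19.6% with upper-quartile factors. Total counts also reversed members lower in IP. Values kept singly were, under the control virus, Rpl3 (0.15), Rpl8 (0.20), Rpl10a (0.24) and Rpl23a (0.13). Under shLarp1 they were Rplp0 (0.43), Rpl29 (0.10), Rpl39 (0.16), Rpl23a (0.48), Rpl26 (0.62) and Rplp1 (0.0664). Scaling shifts all members alike, and Rpl23a was the lowest of the other 12 members listed above as lower under the control virus. All 12 therefore reversed. Under shLarp1 Rplp1 was the lowest after Rpl36, Rpl41 and Rpl12, so every member lower in IP reversed except these. For the difference between IP and input effects, the members higher were 0 with DESeq2 size factors (median -0.15), 11 with total counts (0.42), 1 with upper-quartile factors, 1 with TMM factors against a control IP column (-0.11) and 1 with no filter, where 0.619%, 5.22%, 1.24%, 0.712% and 0.958% of all genes were higher. Leaving out the columns of 1 number in turn left 1 member higher each time, with medians from 0.0328 to 0.13. Adding the named pseudogene copies took the shares lower in input to 0 and the large to small ratios to 1.462 in control IP, 1.4999 in shLarp1 IP, 1.317 in control input and 1.321 in shLarp1 input.

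Treating the columns as replicates called many more members; the median coefficient of variation of a member over the columns was 1.193% in control IP. The quasi-likelihood test without a replicate block called 34 lower in IP; 4 higher and 28 lower in input; 1 higher and 44 lower for IP against input under the control virus; 3 higher and 39 lower under shLarp1; and 20 higher and 10 lower for the difference. Of all genes it called 27.74%, 8.88%, 55.42%, 61.18% and 11.11% in these 5 comparisons. With the replicate block the numbers were 34 lower in IP, and 4 higher and 28 lower in input. For IP against input they were 1 and 44 under the control virus and 3 and 40 under shLarp1, and for the difference 20 and 10. Of all genes this fit called 26.34%, 8.595%, 54.39%, 60.13% and 10.89%. DESeq2 called 32 lower in IP; 13 higher and 15 lower in input; 1 and 41 under the control virus; 2 and 41 under shLarp1; and 7 higher and 20 lower for the difference, and of all genes 21.44%, 10.37%, 52.26%, 52.94% and 11.1%. Deviations of columns with the same number correlated between -0.055 and 0.037.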
